A study of Mus musculus with 36 samples.

Results

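A set of 10 genes of the myeloid lineages was followed by their symbols through the RNA-seq tables of B cell progenitors with altered SIRT7 or Pax5. They were *Csf1*, *Csf1r*, *Csf2ra*, *Csf2rb*, *Cebpa*, *Cebpb*, *Mpo*, *Elane*, *Lyz2* and *Itgam*. The table of sorted cells listed all 10 of them among 46078 rows, that of *Pax5*-/- cells listed 10 of 35896, and that of cultured wild-type and *Sirt7*-/- cells listed 9 of 18721, without *Elane*. Genes reaching 10 normalized counts in 2 or more of a table's 8 libraries were tested, which left 10, 9 and 7 of the set in these tables, and the remaining ones are given as low values. Of the 10 genes, *Csf1r* lies on chromosome 18, *Csf2rb* at chr15:78325752-78353847 (+ strand), *Cebpa* at chr7:35119293-35121928 (+), *Mpo* at chr11:87793581-87804413 (+), *Elane* at chr10:79886247-79888215 (+) and *Lyz2* at chr10:117277331-117282321 (-) of GRCm38 (mm10), and the positions of the others are given with their Pax5 peaks.

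The series had 24 RNA libraries in 3 tables of 4 groups with 2 libraries each, and ChIP–seq of Pax5 with inputs in 12 samples. Sorted pro-B (CD43+) and pre-B (CD43-) cells, from gates that included B220+IgM-, came from the bone marrow of 2 wild-type and 2 *Sirt7*-/- mice, adults on the 129Sv background with *Sirt7* deleted in the germline, and each mouse gave both fractions. *Pax5*-/- progenitors (Lin-B220+IgM-, C57BL/6, taken from fetal liver by the methods, although the labels call them bone marrow pro-B cells) carried an empty retroviral vector (EV), wild-type Pax5 (Pax5-WT), or Pax5 with 1 lysine replaced to mimic its acetylated (Pax5-K198Q) or deacetylated (Pax5-K198R) state. Cultured pro-B cells (from a gate that included Lin-B220+IgM-) came, by the paper, from the bone marrow of adult 129Sv mice. They were wild-type with EV, or *Sirt7*-/- with EV, Pax5-WT or Pax5-K198R, and these cells also had their own *Pax5*. Both cultured series grew with IL-7, SCF and FLT3-L on a feeder layer of OP9 stromal cells, a mouse line, and the transduced cells were sorted for a marker on the vector. The sorted libraries held between 50004827 and 55536608 reads in genes, and the normalized counts of a library summed to between 28865461 and 30520853 in *Pax5*-/- cells and between 27814214 and 30160880 in the cultured series. With 2 libraries a group, an exact permutation test could not go below p = 0.333, and the p-values below, from a model over all genes, measure the spread between these samples.

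*Csf1* encodes macrophage colony-stimulating factor, a ligand, and *Csf1r* its receptor on monocytes and macrophages. *Csf2ra* and *Csf2rb* encode the alpha and common beta chains of the GM-CSF receptor, the beta chain being shared with the receptors of IL-3 and IL-5. C/EBPα and C/EBPβ are transcription factors that drive granulocyte and monocyte programmes. *Mpo* (myeloperoxidase) and *Elane* (neutrophil elastase) encode enzymes of granulocyte granules, *Lyz2* encodes lysozyme of monocytes, macrophages and granulocytes, and *Itgam* encodes the integrin CD11b of myeloid and natural killer cells. Pax5 commits progenitors to the B lineage, activating B cell genes and repressing genes of other lineages, among them *Csf1r*, and cells without it remain able to respond to myeloid cytokines.

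The labels of *Sirt7* and of the added Pax5 held in the RNA. The loss of *Pax5* itself was not checked, since the series of *Pax5*-/- cells has no wild-type group. *Sirt7* stood at 2692 and 2533 normalized counts in pro-B libraries of wild-type mice against 363 and 366 in those of *Sirt7*-/- mice. In pre-B libraries it was at 5613 and 5219 in wild-type against 1066 and 821 in *Sirt7*-/- mice. Cultured wild-type cells had 1324 and 905, and cultured *Sirt7*-/- cells between 325 and 407. In *Pax5*-/- cells *Pax5* RNA was 2201 and 2103 with EV, 6458 and 6152 with Pax5-WT, 8918 and 8963 with Pax5-K198Q and 21162 and 16609.5 with Pax5-K198R. The Pax5-K198R cells thus had the most *Pax5* RNA, and the form of Pax5 and its amount cannot be told apart in the comparisons between forms. Some libraries stood apart. The pre-B library of the second *Sirt7*-/- mouse had 3838 counts of *Dntt*, a pro-B gene, where the other pre-B libraries had between 131 and 423, and both libraries of this mouse had the highest summed counts of an erythroid list, 26545 and 45935 against at most 11346 elsewhere. In the cultured series the summed count of the 11 listed stroma genes, led by *Fn1*, was 31971 and 24079 in the second libraries with Pax5-WT and Pax5-K198R and between 7974 and 12672 in the others.

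Sequence is shown for the Pax5-bound windows at *Cebpb* and *Itgam*, *Cebpb* as a gene with a peak at its start and *Itgam* as the gene with a peak of both Pax5-WT and Pax5-K198R in both lists. ChIP–seq was made in *Pax5*-/- cells expressing each form, and a window was taken around the mean of the summits of the replicate peak lists. On GRCm38 (mm10) the *Cebpb* window of Pax5-K198R crossed the gene start (gene at chr2:167688915-167690418, + strand), and only its bases upstream are printed, chr2:167688630-167688914, which lay outside the transcript, and the whole 300-base window had a GC content of 81.3%. The *Itgam* window of Pax5-WT, chr7:128100850-128101149, lay in an intron (gene at chr7:128062640-128118491, + strand). Capitals mark matches to GCNTGAC on either strand, a core of the Pax5 recognition sequence, and both are given on the + strand from the RefSeq copy of the genome.
Cebpb: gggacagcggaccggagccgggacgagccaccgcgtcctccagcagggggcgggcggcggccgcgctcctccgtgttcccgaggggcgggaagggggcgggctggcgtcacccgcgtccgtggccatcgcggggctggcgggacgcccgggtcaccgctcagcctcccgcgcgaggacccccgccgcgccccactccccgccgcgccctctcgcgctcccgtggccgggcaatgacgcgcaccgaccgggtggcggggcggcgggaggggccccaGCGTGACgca
Itgam: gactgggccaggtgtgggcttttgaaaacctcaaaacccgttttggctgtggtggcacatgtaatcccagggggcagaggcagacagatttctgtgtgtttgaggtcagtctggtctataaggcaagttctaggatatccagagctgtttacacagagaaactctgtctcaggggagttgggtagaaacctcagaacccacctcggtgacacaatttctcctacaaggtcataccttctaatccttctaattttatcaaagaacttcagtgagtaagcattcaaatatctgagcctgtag
The upstream window of *Cebpb* held 1 match, GCGTGAC, and that of *Itgam* held none. These letters occurred in 20.1% of the 8018 windows shared by both Pax5-WT lists, in 25.0% of 2440 of Pax5-K198Q, in 19.2% of 9505 of Pax5-K198R and in 10.7% of 32851 RefSeq promoters of the same 300 bases.

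Within a gene body or 10 kb of it, 2 of the 10 genes had a Pax5-WT peak in both replicate lists (*Csf1r* and *Itgam*), none had a Pax5-K198Q peak, and 4 had a Pax5-K198R peak (*Csf1*, *Csf2ra*, *Cebpb* and *Itgam*). Of 21951 protein-coding genes, 31.1%, 12.0% and 35.0% had one, beside which the shares of the 10 genes, each resting on few genes, did not stand out. The *Itgam* intron peak had a fold enrichment over input of 6.54 and 7.18 with Pax5-WT and of 9.83 and 8.05 with Pax5-K198R, with −log10 q between 9.11 and 18.9. At *Csf1r* the Pax5-WT peak lay 8468 bases upstream of the gene, with a fold enrichment of 6.14 and 5.58. The Pax5-K198R peak at the start of *Cebpb*, at chr2:167688601-167689056, reached 4.42 and 5.15. It overlapped the gene start and had the lowest −log10 q of the 6 peaks, 4.62 in the first list, so that 3 of the 10 genes had a Pax5-K198R peak at a −log10 q of at least 5, where 30.0% of all genes had one. *Csf1*, the ligand, had a Pax5-K198R peak over an exon at the gene start (chr3:107759970-107760765; gene at chr3:107741048-107760469, - strand) with a fold enrichment of 4.55 and 5.72. That of *Csf2ra* lay within the gene (chr19:61227106-61227924; gene at chr19:61223957-61228429, - strand) and reached 5.54 and 5.85. Single lists added *Csf2ra* and *Elane* for Pax5-WT, *Itgam* for Pax5-K198Q, and *Csf1r* and *Elane* for Pax5-K198R, while *Csf2rb*, *Cebpa*, *Mpo* and *Lyz2* had no peak in any of the 6 lists. The deposited lists hold called peaks only, and the signal of one form at a peak of another was not compared.

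In sorted wild-type cells the myeloid genes did not move together from the pro-B to the pre-B stage. *Itgam* and *Csf2ra* rose, and *Lyz2*, *Cebpa*, *Csf1r* and *Cebpb* fell. Tests were made with limma on log2(normalized count + 1), with Benjamini-Hochberg adjustment over all genes, and a gene was called at an adjusted p under 0.05. Thus 6 of the 10 genes were called, 2 higher and 4 lower, where 40.2% of all 17649 genes tested were called. Their median log2 fold change was -0.69, and that of all genes -0.04.

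*Lyz2* had 6762 and 6030.1 normalized counts in the pro-B libraries and 898 and 824 in the pre-B libraries of these mice. Every pro-B library was above every pre-B library, and *Lyz2* fell by 2.89 on the log2 scale (SE 0.41, adjusted p = 0.0018). *Csf1r* went from 223 and 209.8 to 57.5 and 45.9, a log2 fold change of -2.05 (SE 0.56, adjusted p = 0.0255). *Cebpa* went from 118 and 102 to 29.3 and 29.5, and the pre-B libraries were nearly equal. Its log2 fold change was -1.86 (SE 0.32, adjusted p = 0.00411). *Cebpb* was at 104 and 139.9 before and at 62.7 and 56.8 after this step, with a log2 fold change of -1.001 (SE 0.28, adjusted p = 0.0276). Both C/EBP genes thus fell without overlap between the stages, as did the receptor of the macrophage ligand. In all, 8 of the 10 genes did not overlap between the wild-type stages, where 72.6% of all genes did not.

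*Itgam* had 5096 and 4483 counts at the pro-B stage and 8991 and 9149.8 at the pre-B stage. The increase, 0.92 on the log2 scale (SE 0.10, adjusted p = 0.000584), had the smallest adjusted p of the 10 genes. The alpha chain gene *Csf2ra* went from 8254 and 6803 to 11372 and 9864, with a log2 fold change of 0.50 (SE 0.15, adjusted p = 0.0394). Per kb of exon, *Lyz2* had the highest level of the 10 genes in sorted cells, 4860 normalized counts per kb in wild-type pro-B cells, followed by *Csf2ra* with up to 3916 and *Itgam* with up to 1805, while *Cebpa* and *Csf1r* were lowest with at most 41.6 and 37.5. The counts of *Itgam* and *Csf2ra* were thus far above the level of 10 normalized counts in these fractions. Those of *Itgam* may include reads of *Gm49368*, which overlaps it on the same strand.

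The remaining genes were not called between the wild-type stages. *Mpo* had 3270.1 and 2346 counts at the pro-B stage and 1415 and 1609 at the pre-B stage, without overlap (adjusted p = 0.171). *Csf1* was at 540.3 and 541 in pro-B libraries, below the 952 and 817 of pre-B libraries (adjusted p = 0.254). For *Elane* the pro-B libraries, 803 and 368, lay on either side of the pre-B libraries, 649 and 637. *Csf2rb* overlapped as well, with 1117 and 850.4 against 996 and 473.

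**Figure D1:**
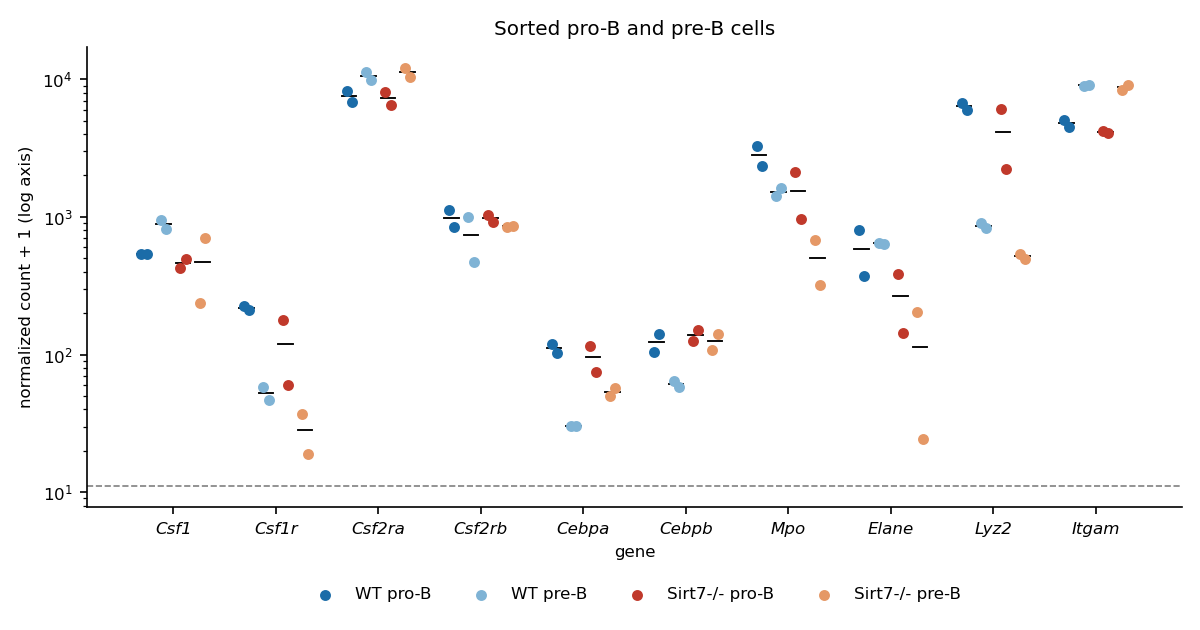
Normalized count plus 1, on a log axis, of the 10 genes in the 8 libraries of sorted cells, with 1 point per library, a black line at the mean of the 2 libraries of a group, and a dashed line at 10 normalized counts. *Itgam* is higher and *Lyz2* and *Csf1r* are lower in the pre-B libraries of both genotypes, and the mean of *Elane* is lowest in the *Sirt7*-/- pre-B cells, at 204 and 23.2.

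*Sirt7*-/- cells had the same order of stages for most of the genes. *Itgam* and *Csf2ra* rose and *Lyz2*, *Csf1r* and *Mpo* fell, 5 of 10 called where 35.7% of all genes were. The stages did not overlap for 7 of the 10, where 69.8% of all genes did not. *Itgam* had 4233 and 4085 counts in pro-B and 8351 and 9154 in pre-B cells, and rose by 1.07 on the log2 scale (SE 0.10, adjusted p = 0.000555). *Csf2ra*, with 8049 and 6486 against 12094 and 10392, rose by 0.63 (SE 0.15, adjusted p = 0.019). *Lyz2* had 6109 and 2224 counts in pro-B and 537 and 493 in pre-B cells. Here the pro-B libraries differed from each other by more than in wild-type cells, and both were above the pre-B libraries, with a log2 fold change of -2.84 (SE 0.41, adjusted p = 0.00273). *Csf1r* was at 176 and 59.0 against 36.2 and 17.9, a log2 fold change of -1.96 (SE 0.56, adjusted p = 0.0337), and *Mpo* at 2114 and 968 against 682 and 318, one of -1.62 (SE 0.46, adjusted p = 0.0319). The C/EBP genes were not called: *Cebpa* was at 115 and 73.8 in pro-B and 49.0 and 55.8 in pre-B cells (adjusted p = 0.0949), and *Cebpb* at 125 and 150.4 against 108 and 140.1 (adjusted p = 0.697).

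The difference between the genotypes in the step from pro-B to pre-B was tested itself and was called for none of the 10 genes, where 0.00567% of all genes were called. The lowest adjusted p was 0.909, for *Cebpb* and for *Cebpa*, whose steps differed by 0.85 (SE 0.40) and 1.06 (SE 0.45) on the log2 scale, and 0 of the 10 had an unadjusted p under 0.05, where 5.43% of all genes had one. With the mouse as a block, *Mpo* was also called lower in wild-type and *Elane* in *Sirt7*-/- cells, 7 and 6 of the 10 genes, where 43.1% and 38.5% of all genes were called. Calls at the stage step depended on single libraries for some of the genes. *Itgam* and *Lyz2* were called in both genotypes, and *Cebpa* in wild-type cells, without any 1 of the 4 libraries compared. *Csf1r* in wild-type cells was lost without any of them (adjusted p between 0.0706 and 0.106), *Cebpb* without the second pro-B or either pre-B library (adjusted p up to 0.146), and *Csf2ra* without the same 3 (up to 0.196). In *Sirt7*-/- cells *Mpo* and *Csf1r* were lost without the first pro-B or the second pre-B library (adjusted p up to 0.146 and 0.147), and *Csf2ra* without the second pro-B or the first pre-B library (up to 0.102). Without both libraries of the second *Sirt7*-/- mouse, which stood apart, 4 of the 5 calls remained, where 21.5% of all genes were called, and *Csf2ra* was not called (adjusted p = 0.0949). This and the next such choice were made after seeing the data, and a lone library was then taken to vary like the other groups.

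Other myeloid genes of the sorted cells also went both ways at the stage step. Among 8 further transcription factors, *Spi1*, which encodes PU.1, and *Irf8* rose in both genotypes, with log2 fold changes of 0.86 and 0.56 in wild-type and 0.93 and 0.57 in mutant cells. In wild-type cells these 2 of the 8 were called, and the mutant cells added *Cebpd*, called lower (-1.61). Of 7 surface and lysosome genes 2 were called higher and 2 lower in wild-type, and 2 and 3 in *Sirt7*-/- cells. *Itgax* (CD11c) and *Itgb2*, the beta chain that pairs with CD11b, were the 2 higher ones, with 2.67 and 0.61 in the former and 1.68 and 0.79 in the latter. *Cd33* and *Ly6g* fell in both, with -2.65 and -3.04 in wild-type and -3.13 and -3.53 in mutant cells, and *Ly6c2* in mutant cells, with -2.35. The chemokine receptors of monocytes *Cx3cr1* and *Ccr2* fell, with log2 fold changes of -3.56 and -2.98 in wild-type and -3.74 and -2.79 in mutant cells. Of 9 receptors 3 were called lower in wild-type and 2 in *Sirt7*-/- cells, and of 11 granule and antimicrobial genes 2 and 4 were called lower, with none of either list called higher. Of all genes 40.2% in wild-type and 35.7% in *Sirt7*-/- cells were called at this step. The granule list had medians of -2.23 and -2.77, with 1 and 0 of 11 genes above 0, where the medians of all genes were near -0.04. An unadjusted p under 0.05 was found for 6 and 10 of the 11, where 49.1% and 45.8% of all genes had one. Medians were -0.89 and -0.76 for receptors, 0.11 and 0.13 for transcription factors, and -0.40 and 0.03 for surface and lysosome genes. *Lyz1*, the near-identical neighbour of *Lyz2*, fell, with -4.38 and -4.26. The ligand genes *Csf2*, *Csf3*, *Il3* and *Il34* were tested in none of the tables, because their counts were too low.

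Several marker lists of other bone marrow cells had lower sums at the pre-B stage as well. The summed count of the 11 granule genes, of which *Ngp* was the most abundant, was 94794 and 57678 in wild-type pro-B, 15742 and 11570 in wild-type pre-B, 72585 and 10064 in *Sirt7*-/- pro-B, and 7609 and 2361 in *Sirt7*-/- pre-B cells. It was thus higher in each pro-B library than in the pre-B library of the same mouse, and lowest in the pre-B library of the second *Sirt7*-/- mouse, as *Elane* and *Mpo* were. The 10 T cell genes summed to between 7751 and 8122 in the pro-B and between 3243 and 4390 in the pre-B libraries, with 9 of 10 called lower at the pre-B stage of wild-type mice and 6 at that of *Sirt7*-/- mice, where 40.2% and 35.7% of all genes were called in either direction, the most abundant of them was *Lck*, and the T cell receptor complex genes *Cd3e* and *Cd3g* were at 0 in all 4 pre-B libraries. The 6 mast cell and basophil genes, led by *Prss34*, summed to between 130 and 642 in the pro-B and between 3.20 and 57.9 in the pre-B libraries. Of 5 plasmacytoid dendritic cell genes 1 had a log2 fold change above 0 in either genotype, *Cox6a2*, which was called higher, and the list medians were -2.37 in wild-type and -1.10 in *Sirt7*-/- cells. Through *Cox6a2* the sum of this list was higher in the pre-B than in the pro-B library of each mouse (501 and 2705 in the first wild-type mouse, of which *Cox6a2* made up 328 and 2669). The sum of the 7 erythroid and megakaryocyte genes, led by *Hba-a1*, went from 11346 to 3380 and from 8156 to 5700 in wild-type mice, and from 7710 to 5268 and from 26545 to 45935 in *Sirt7*-/- mice, so that only the last, the mouse that stood apart, had the higher sum at the pre-B stage. The list median was -1.16 in wild-type and 0.35 in *Sirt7*-/- cells, with 1 of 7 called in each, *Klf1*, lower. The sum of the B lineage list was higher at the pre-B stage in each mouse, going from 395140 to 701490 and from 392990 to 594390 in wild-type and from 436070 to 670950 and from 400120 to 598520 in *Sirt7*-/- mice. In bulk RNA a smaller number of cells of a type and less RNA per cell cannot be told apart, and the part of such cells in the changes of *Lyz2*, *Mpo*, *Elane*, *Csf1r* and *Cebpa* was not tested.

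**Figure D2:**
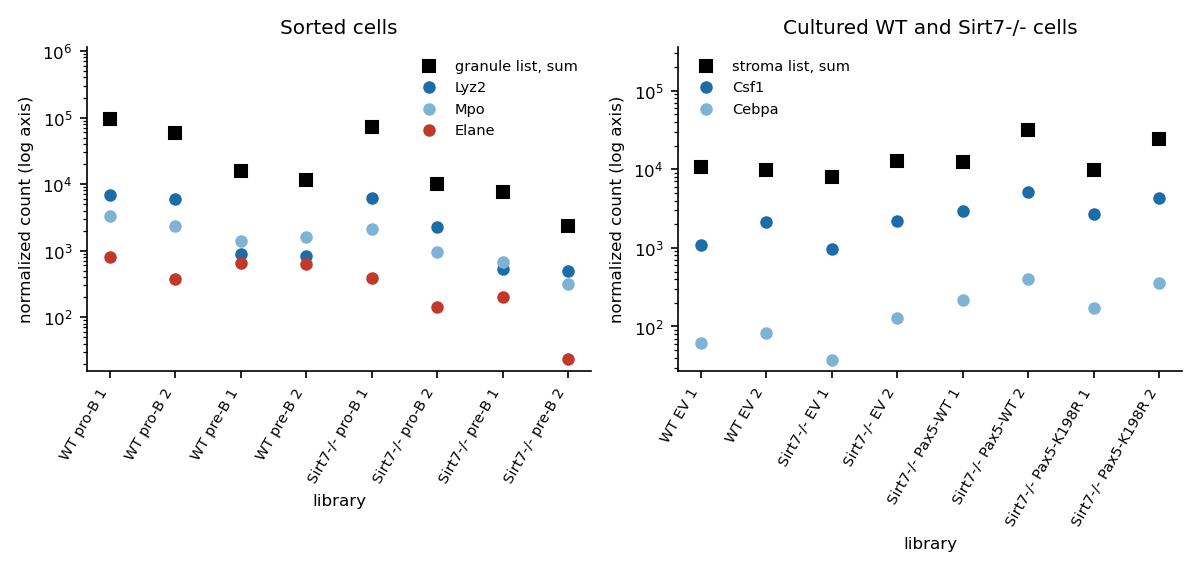
Left, summed normalized count of 11 granule genes (black squares) and counts of *Lyz2*, *Mpo* and *Elane* in each sorted library; right, summed count of 11 stroma genes (black squares) and counts of *Csf1* and *Cebpa* in each cultured library, all on log axes. The granule sum is lowest in the second *Sirt7*-/- pre-B library, at 2361, where *Elane* and *Mpo* are lowest, and the stroma sum is highest in the second Pax5-WT and Pax5-K198R libraries, at 31971 and 24079, where *Csf1* and *Cebpa* are also highest.

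The loss of *Sirt7* at a given stage called none of the 10 genes with limma. In pro-B cells 0.0623% of all genes were called, and the lowest adjusted p of the 10 was 0.888, with 0 of the 10 at an unadjusted p under 0.05, where 5.94% of all genes were. *Mpo*, *Csf1r*, *Csf1* and *Itgam* were lower in both *Sirt7*-/- pro-B libraries than in both wild-type ones, 4 of 10 where the groups of 39.3% of all genes did not overlap. *Csf1r*, at 223 and 209.8 in wild-type and 176 and 59.0 in *Sirt7*-/- libraries, had a log2 fold change of -1.08 (SE 0.56, adjusted p = 0.904), which was -0.30 without the second *Sirt7*-/- library and -1.86 without the first. In pre-B cells 0.085% of all genes were called, and of the 10 genes 5 had an unadjusted p under 0.05, where 13.6% of all genes had one. Groups did not overlap for 7 of the 10, where 41.4% of all genes did not, with 5 lower (*Elane*, *Mpo*, *Csf1*, *Csf1r* and *Lyz2*) and 2 higher (*Cebpb* and *Cebpa*) in *Sirt7*-/- cells. *Elane* was at 649 and 637 in the wild-type libraries and at 204 and 23.2 in the mutant ones, a log2 fold change of -3.20 (SE 0.975, adjusted p = 0.234). *Mpo*, at 1415 and 1609 against 682 and 318, had one of -1.69 (SE 0.46, adjusted p = 0.201), and *Csf1*, at 952 and 817 against 235 and 702, one of -1.12 (SE 0.45, adjusted p = 0.344). The sizes of these changes rested on single *Sirt7*-/- libraries. That of *Csf1* was -0.33 without the first and -1.91 without the second, that of *Elane* -4.74 and -1.66, and that of *Mpo* -2.24 and -1.14. *Cebpb* was higher, at 108 and 140.1 against 62.7 and 56.8, with 1.03 (SE 0.28, adjusted p = 0.204). Without the first *Sirt7*-/- pre-B library only the second was left, from the mouse that stood apart. *Elane* and *Mpo* were lowest in that library. DESeq2 on the whole reads recovered from this table called *Mpo* and *Elane* lower in *Sirt7*-/- pre-B cells, whereas edgeR called none of the 10. DESeq2 also called 728 genes in all here, against the 15 called by limma. The granule genes as a list had the same direction, with medians of -1.35 and -1.78 and 0 of 11 called in either stage. Lists of other cells went both ways in pre-B cells. Medians were 0.906 for T cell, 0.895 for NK cell, 2.73 for plasmacytoid dendritic cell and 0.636 for erythroid and megakaryocyte genes. That of the stroma genes was -0.947, and 0 genes of these lists were called. Of the T cell genes 5 of 10 had an unadjusted p under 0.05, and of the stroma genes 3 of 8, where 13.6% of all genes had one.

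In *Pax5*-/- progenitors *Mpo*, *Cebpb* and *Csf1r* were called lower and *Lyz2* higher with Pax5-K198R against EV. Pax5-WT against EV called *Lyz2* higher, and Pax5-K198Q against EV called none of the genes. These counts come from the fit without a replicate block. By the methods replicates were made on different days, and samples with the same number deviated together (correlation between 0.264 and 0.383). With the replicate number as a block the counts against EV were 8 of 9 for Pax5-K198R, 5 for Pax5-WT (*Mpo*, *Csf1r* and *Itgam* lower, *Lyz2* and *Csf2rb* higher) and 2 for Pax5-K198Q (*Lyz2* and *Csf2rb* higher), where 21.2%, 10.1% and 2.72% of all genes were called. The genes that the block added for Pax5-K198R were *Itgam* and *Cebpa*, lower, and *Csf1* and *Csf2rb*, higher. The 3 comparisons share their EV libraries. *Csf2rb* had the highest level per kb of the 10 genes in this series, up to 607 normalized counts per kb, and *Elane* the lowest, with 0 in all but 1 Pax5-K198Q library, which had 0.980 normalized counts. *Csf1r* was under 10 in both libraries with Pax5-WT and with Pax5-K198R, and *Mpo* and *Cebpa* were each under 10 in 1 library with Pax5-K198R. These low values rest on few reads.

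Pax5-K198R against EV called 4 of 9 genes, 1 higher and 3 lower, where 9.92% of 13345 genes were called. *Mpo* had 189 and 97.7 normalized counts with EV and 13.1 and 7 with Pax5-K198R. All EV libraries were above all Pax5-K198R libraries, and the log2 fold change was -3.69 (SE 0.45, adjusted p = 0.00275). *Cebpb* went from 379 and 555 to 119.7 and 85.3, with -2.17 (SE 0.27, adjusted p = 0.00275). *Csf1r* went from 59.2 and 22.1 to 6.85 and 2.14, with -2.91 (SE 0.64, adjusted p = 0.0274). *Lyz2*, in contrast, was at 49.0 and 34.7 with EV and at 218 and 192 with Pax5-K198R, 2.28 higher on the log2 scale (SE 0.26, adjusted p = 0.00213). *Itgam* had 714 and 575 counts with EV and 418 and 207 with Pax5-K198R, without overlap and not called (log2 fold change -1.12, SE 0.31, adjusted p = 0.0652). *Cebpa* was likewise lower without overlap and not called, at 48.9 and 73.7 against the low values of 8.05 and 29.7 (-1.87, SE 0.72, adjusted p = 0.166). Its log2 fold change ranged from -2.755 to -0.991 without 1 library at a time. The calls of *Mpo*, *Cebpb* and *Lyz2* held without any 1 of the 4 libraries, and that of *Csf1r* was lost without the first EV or the second Pax5-K198R library (adjusted p up to 0.175). For *Itgam* the log2 fold change ranged from -1.624 to -0.615 without 1 library at a time. Groups did not overlap for 8 of the 9 genes, where 46.8% of all genes did not.

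Pax5-WT against EV called 1 of 9 genes, where 3.25% of all genes were called. *Lyz2* had 126 and 155 counts with Pax5-WT, 1.74 higher on the log2 scale than with EV (SE 0.26, adjusted p = 0.0145), and its call was lost without the second EV or either Pax5-WT library (adjusted p up to 0.141). *Csf1r* had 7.79 and 7.56 counts and *Mpo* 30.1 and 44.2 with Pax5-WT, below both EV libraries but not called, with log2 fold changes of -2.10 (SE 0.64, adjusted p = 0.15) and -1.87 (SE 0.45, adjusted p = 0.0767). *Itgam*, at 319 and 257, was lower without overlap (log2 fold change -1.16, SE 0.31, adjusted p = 0.106), and *Cebpb*, at 234 and 263, and *Csf1*, at 284 and 361, were also below both EV libraries. In all, 7 of the 9 genes did not overlap with EV and 7 had an unadjusted p under 0.05, where 42.6% of all genes did not overlap and 14.4% had such a p.

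Pax5-K198Q against EV called 0 of 9 genes, where 0.922% of all genes were called, and 4 of the 9 had an unadjusted p under 0.05, where 7.86% of all genes had one. The acetylation mimic left *Csf1r* at 30.7 and 23.1 and *Mpo* at 73.3 and 95.0. Both *Csf1r* values were within the EV range, and both *Mpo* values were below it, with a log2 fold change of -0.69 (SE 0.45). *Lyz2*, at 90.6 and 103, was above EV without overlap (log2 fold change 1.20, SE 0.26, adjusted p = 0.121), and *Itgam*, at 551 and 493, was below. In all, 6 of the 9 genes did not overlap with EV, where 34.2% of all genes did not.

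**Figure D3:**
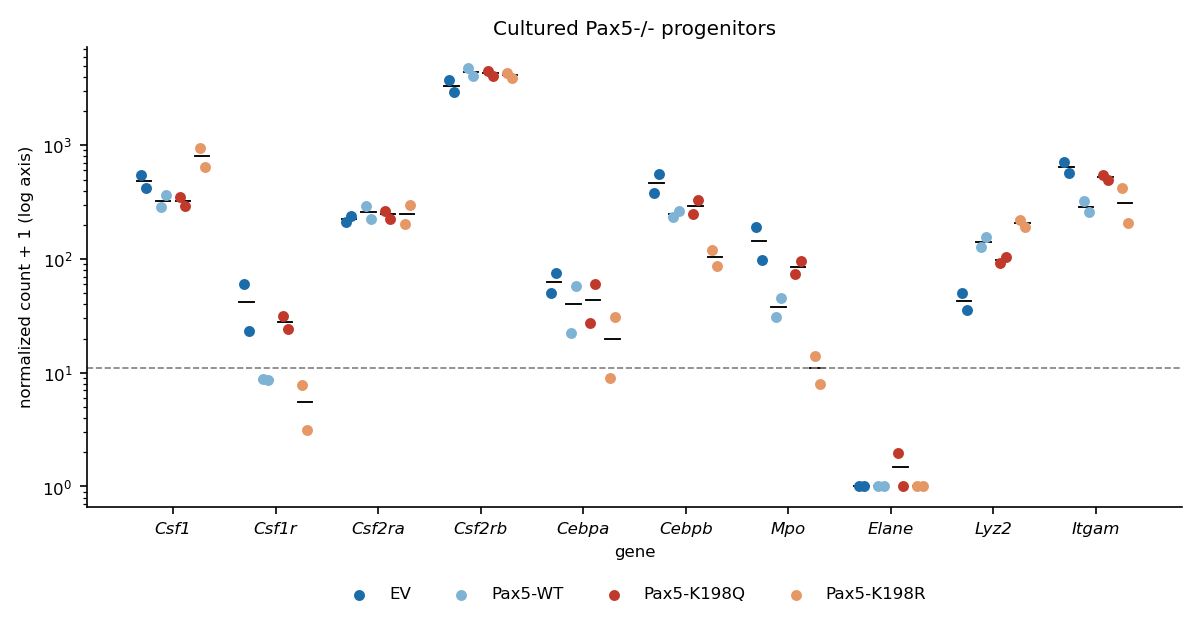
Normalized count plus 1, on a log axis, of the 10 genes in the 8 libraries of *Pax5*-/- cells with EV or a Pax5 form, with 1 point per library, a black line at the mean of the 2 libraries of a group, and a dashed line at 10 normalized counts. *Mpo* and *Cebpb* are lowest and *Lyz2* and *Csf1* are highest with Pax5-K198R, and *Elane* is at 0 in all libraries but 1.

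The forms were then compared with each other. Pax5-K198R against Pax5-WT called 2 of 9 genes, where 2.87% of all genes were called. With only the compared groups in the fit, Pax5-K198R called 0 of the genes against Pax5-WT and 0 against Pax5-K198Q, where 0.318% and 0.829% of all genes were called. With the replicate block it called 3 (*Mpo*, adjusted p = 0.0425, added) and 6 (*Csf1r*, *Lyz2* and *Itgam* added), where 7.52% and 13.1% of all genes were called. *Csf1* had 284 and 361 counts with Pax5-WT and 950.1 and 644 with Pax5-K198R, a log2 fold change of 1.29 (SE 0.24, adjusted p = 0.0366), and *Cebpb* 234 and 263 against 119.7 and 85.3, one of -1.29 (SE 0.27, adjusted p = 0.0486). Each call was lost in 3 of the 4 fits without 1 library (adjusted p up to 0.226 and 0.287), those without either Pax5-WT library and without the first Pax5-K198R library for *Csf1* or the second for *Cebpb*. *Mpo* was lower with Pax5-K198R without overlap and was not called (-1.82, SE 0.45, adjusted p = 0.0903). Against Pax5-K198Q, Pax5-K198R called 3 of 9 genes, where 5.01% of all genes were called: *Mpo* lower by -2.99 (SE 0.45, adjusted p = 0.0118), *Cebpb* lower by -1.49 (SE 0.27, adjusted p = 0.0215) and *Csf1* higher by 1.29 (SE 0.24, adjusted p = 0.0254). *Csf1r* (-2.48, SE 0.64, adjusted p = 0.0755) and *Lyz2* (1.08, SE 0.26, adjusted p = 0.0618) did not overlap and were not called, although *Csf1r* was called without the first Pax5-K198R library (adjusted p = 0.0407). The calls of *Mpo* (adjusted p up to 0.102), *Cebpb* (up to 0.161) and *Csf1* (up to 0.173) were each lost without either Pax5-K198Q library, and those of *Cebpb* and *Csf1* were also lost without the second and the first Pax5-K198R library.

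Pax5-K198Q against Pax5-WT called 0 of 9 genes, where 0.0225% of all genes were called, and 3 of the 9 had an unadjusted p under 0.05, where 3.46% of all genes had one. *Csf1r* and *Mpo* were higher with Pax5-K198Q without overlap, by 1.67 (SE 0.64) and 1.17 (SE 0.45) on the log2 scale, each with an adjusted p of 1. The GM-CSF receptor chains were called in no comparison of this series without the replicate block, with *Csf2ra* at up to 297 and *Csf2rb* between 2923 and 4784 over the 8 libraries.

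Among the other myeloid genes of the *Pax5*-/- cells, several of the monocyte and dendritic cell genes also fell with Pax5-K198R. Against EV, the log2 fold changes were -1.79 for *Cx3cr1*, -1.69 for *Ccr2*, -2.69 for *Itgax*, -2.68 for *Ly6c2*, -1.33 for *Cd33* and -1.93 for the transcription factor gene *Id2*. *Prtn3*, which encodes a granule protease stored with myeloperoxidase and elastase, fell as well, with -2.12 against EV and -1.57 against Pax5-WT. *Il5ra*, whose product pairs with the common beta chain, went the other way and rose by 3.75 with Pax5-K198R, 2.92 with Pax5-WT and 2.91 with Pax5-K198Q. Of 7 receptors tested 1 was called higher and 2 lower with Pax5-K198R, of 6 transcription factors 0 and 1, of 5 surface and lysosome genes 0 and 3, and of 2 granule genes 0 and 1, where 9.92% of all genes were called in either direction. The sums of marker genes of some other cells were lower too. The 5 plasmacytoid dendritic cell genes, led by *Ccr9*, summed to 10191 and 7962 with EV, 4539 and 2269 with Pax5-WT, 6899 and 4385 with Pax5-K198Q and 4484 and 1315 with Pax5-K198R, and the 6 NK cell genes, led by *Klrd1*, to 1242 and 1109, 486 and 387, 785 and 651, and 332 and 169. The stroma genes summed to between 2712 and 7031, and the groups overlapped. The part of such cells in the changes of *Mpo*, *Csf1r*, *Cebpb* and *Itgam* was not tested.

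In the cultured wild-type and *Sirt7*-/- cells *Csf1r* and *Mpo* were under 10 normalized counts in all 8 libraries and *Elane* was not listed. *Csf1r* had 8.78 and 1.05 counts in wild-type cells with EV, 9.39 and 7.63 in *Sirt7*-/- cells with EV, 0 and 0 with Pax5-WT and 0 and 0.8 with Pax5-K198R. *Mpo* was at 0 in all 4 EV libraries and at most 2.61 in the others. No fold change is given for these genes. *Csf1* had the highest level per kb of the 9 genes, up to 760.0 normalized counts per kb, followed by *Csf2rb* with up to 599.

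The loss of *Sirt7* with EV called 0 of the 7 genes tested, where 0.557% of 13651 genes were called, and 0 of the 7 had an unadjusted p under 0.05, where 9.68% of all genes had one. The groups overlapped for all but *Cebpb*, which was at 36.5 and 36.7 in wild-type and 32.3 and 21.9 in *Sirt7*-/- cells. Of all genes 34.6% did not overlap. *Itgam* was at 1103 and 588 against 690.0 and 862, and *Lyz2* at 160.0 and 97.0 against 148 and 61.9.

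In cultured *Sirt7*-/- cells *Lyz2* fell with Pax5-K198R against EV. It had 148 and 61.9 counts with EV, 33.9 and 34.2 with Pax5-WT and 18.4 and 17.2 with Pax5-K198R, so that each group lay below the one before. Pax5-K198R against EV called *Lyz2* alone of the 7 genes (log2 fold change -2.36, SE 0.45, adjusted p = 0.0295), where 4.83% of all genes were called, and the call was lost without the first EV or either Pax5-K198R library (adjusted p up to 0.163), and without both libraries with the highest stroma sums, which left 1 Pax5-K198R library (log2 fold change -2.31, adjusted p = 0.24). It was also lost without the filter on low counts (adjusted p = 0.0504). Pax5-WT against EV called 0 of 7, where 0.0366% of all genes were called, with 4 of the 7 at an unadjusted p under 0.05, where 9.91% of all genes were, and *Lyz2* at -1.46 (SE 0.45, adjusted p = 0.331). Pax5-K198R against Pax5-WT called 0 of 7, where 0.425% of all genes were called, and 0 of the 7 had an unadjusted p under 0.05, where 8.78% of all genes had one.

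*Cebpa*, *Cebpb* and *Csf1* were higher with either form than in both EV libraries of *Sirt7*-/- cells and were not called. With either form 6 of the 7 genes did not overlap with EV, where 38.7% (Pax5-WT) and 49.6% (Pax5-K198R) of all genes did not. With the replicate number as a block *Csf1* (adjusted p = 0.00383 with Pax5-WT and 0.00113 with Pax5-K198R) and *Cebpa* (0.0235 and 0.00942) were called, where 1.96% and 11.6% of all genes were, and the correlation of the deviations of same-numbered samples was between 0.156 and 0.428. *Cebpa* had 37.7 and 127 counts with EV, 219 and 397 with Pax5-WT and 169.6 and 355 with Pax5-K198R. Its log2 fold changes were 2.07 (SE 0.60, adjusted p = 0.295) and 1.81 (SE 0.60, adjusted p = 0.151). Without 1 library at a time they ranged from 1.21 to 2.93 and from 0.947 to 2.67. *Cebpb*, at 32.3 and 21.9 with EV, reached 67.1 and 79.6 and then 49.1 and 88.7, with 1.42 (SE 0.39, adjusted p = 0.273) and 1.28 (SE 0.39, adjusted p = 0.118). *Csf1* went from 980.2 and 2205 to 2902 and 5125 and to 2671 and 4274, with 1.39 (SE 0.48, adjusted p = 0.383) and 1.20 (SE 0.48, adjusted p = 0.225). The changes of *Csf1* ranged from 0.806 to 1.975 and from 0.615 to 1.784 without 1 library at a time. In each of these groups the second library was the higher one for *Csf1* and *Cebpa*, and the stroma sum given above was also higher in the second library of each *Sirt7*-/- group. All 9 stroma genes tested had a log2 fold change above 0 against EV with either form, with 0 called, and the part of feeder cells in the values of *Csf1*, *Cebpa* and *Cebpb* was not tested. *Csf2ra* (588 to 1109 over the *Sirt7*-/- libraries), *Csf2rb* (2956 to 4368) and *Itgam* (639 to 896) were not called. *Il5ra* fell by 2.15 with Pax5-K198R, the only further myeloid gene called in this series.

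**Figure D4:**
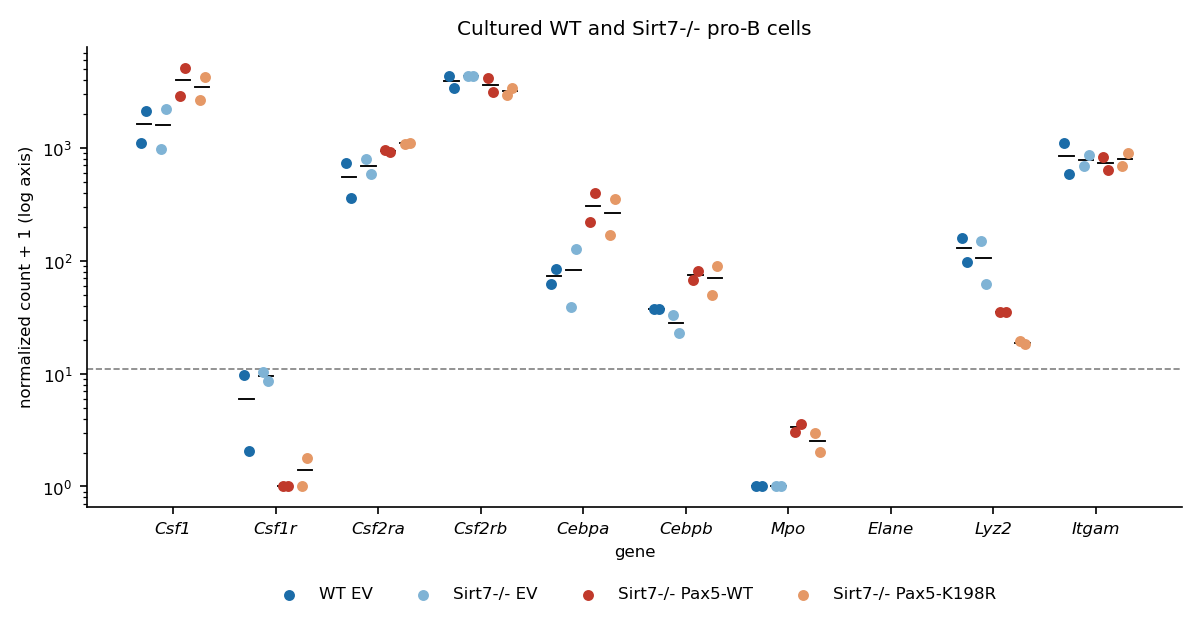
Normalized count plus 1, on a log axis, of the 9 listed genes in the 8 libraries of cultured wild-type and *Sirt7*-/- pro-B cells with EV or a Pax5 form, with 1 point per library, a black line at the mean of the 2 libraries of a group, and a dashed line at 10 normalized counts. *Lyz2* is lowest with Pax5-K198R, at 18.4 and 17.2, and *Csf1r* and *Mpo* lie under the dashed line in every library.

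**Figure D5:**
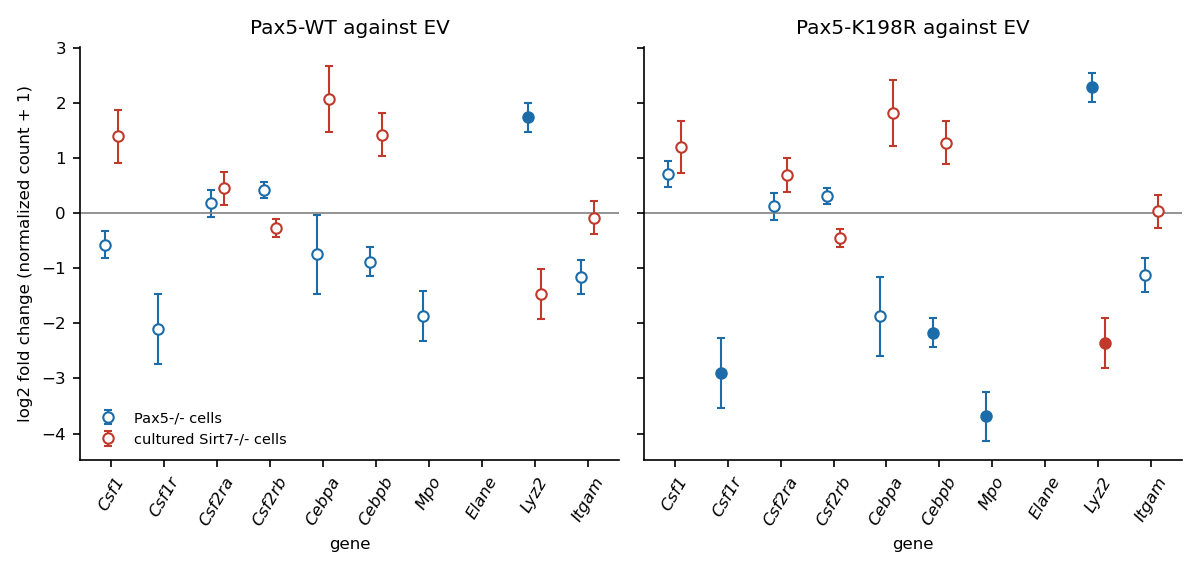
Log2 fold change of Pax5-WT (left) and Pax5-K198R (right) against EV with its standard error, in *Pax5*-/- cells (blue) and in cultured *Sirt7*-/- cells (red), for the genes tested; filled points are called at an adjusted p under 0.05. *Lyz2* lies above 0 in *Pax5*-/- cells (1.74 and 2.28) and below 0 in *Sirt7*-/- cells (-1.46 and -2.36).

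Some counts are uncertain from the annotation. *Csf2rb* and *Lyz2* have near-identical neighbours, *Csf2rb2* and *Lyz1*, with which reads can be shared. *Itgam* overlaps *Gm49368* on the same strand, and *Cebpb*, *Csf1r*, *Cebpa* and *Mpo* overlap *Tmem189*, *Hmgxb3*, *Gm45091* and *Gm11505* on the other strand, from which reads are separated only if the counting used strand.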

How the data were processed

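Poly(A) RNA-seq was quantified by the authors with Salmon on mm10 and normalized by DESeq2's median of ratios, and the deposited normalized counts (signal) were used as they are. Tables were normalized separately, so no test was made across them. In the sorted table every low value was a whole number of reads (100%), which gave the depth. Peaks were called by the authors with MACS2 against input after Bowtie2 alignment, with 1 list per replicate at q under 0.05, and the deposited lists give fold enrichment (a ratio) and −log10 q. Versions of Salmon, DESeq2, Bowtie2 and MACS2 are not given in the sources used here.

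Values were tested as log2(normalized count + 1) with limma 3.58.1 in R 4.3.3, with 4 groups in 1 fit per table, a filter of 10 normalized counts in 2 libraries, and Benjamini-Hochberg adjustment over all genes tested. Fold changes on this scale understate those of low genes. The script was tested on simulated data. A gene's change is given with its SE where it was called, or where it was at least 1 without overlap between groups. From the other lists at most 4 called genes per list and comparison were named. Members and lists were chosen with earlier results of these data known. Stage was taken from sample titles, since another label field of the sorted samples follows the replicate number. Both fractions of a mouse pair the sorted samples (correlation of deviations 0.08 in wild-type and 0.156 in *Sirt7*-/- mice). By the methods replicates were made on different days, without saying whether samples of other groups with the same number shared a day, and the correlation was between 0.264 and 0.383 in *Pax5*-/- and between 0.156 and 0.428 in cultured cells. Alternatives were another pseudocount, filter and scaling, only the groups compared, a replicate block, leaving out libraries, edgeR 4.0.16 and DESeq2 1.42.0 on the whole reads, and other peak windows and thresholds. The peak names inside the second Pax5-K198R list carry another replicate number, and it was used as labelled.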

Additional observations from a re-analysis of the deposited data

Results flagged for a closer look

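For 9 of 21 pairs of changes compared between *Pax5*-/- cells and cultured *Sirt7*-/- cells, every library moved one way in the first and the opposite way in the second, and for 1 pair the same way in both. By contrast these were 4 of 7 genes for Pax5-WT against EV, 4 of 7 for Pax5-K198R against EV and 1 of 7 for Pax5-K198R against Pax5-WT, where 9.93%, 13.9% and 6.80% of the 12365 genes tested in both series moved in opposite ways in every library. In the same order, 0, 1 and 0 of the 7 genes moved the same way in both series, where 7.35%, 10.6% and 8.05% of all genes did. The 3 contrasts share libraries. The difference was not tested, since the tables were normalized separately, and genotype, strain and the cells' own *Pax5* all differ between these series. In cultured *Sirt7*-/- cells all 9 stroma genes tested had a log2 fold change above 0 against EV with either form. Their medians were 0.848 with Pax5-WT and 0.592 with Pax5-K198R, with 0 called. In *Pax5*-/- cells 7 of 9 stroma genes tested were above 0 with either form. The medians there were 0.527 and 0.209, and 1 stroma gene was called lower with each form. The part of feeder cells in these changes was not tested. For Pax5-WT against EV the log2 fold changes in *Pax5*-/- and in *Sirt7*-/- cells were 1.74 and -1.46 for *Lyz2*, -0.88 and 1.42 for *Cebpb*, -0.57 and 1.39 for *Csf1*, and 0.41 and -0.27 for *Csf2rb*. For Pax5-K198R against EV they were 2.28 and -2.36 for *Lyz2*, -2.17 and 1.28 for *Cebpb*, -1.87 and 1.81 for *Cebpa*, and 0.31 and -0.45 for *Csf2rb*. For Pax5-K198R against Pax5-WT they were 0.54 and -0.90 for *Lyz2*. With the replicate number as a block, *Cebpa* with Pax5-K198R against EV was called in both series, lower in *Pax5*-/- and higher in *Sirt7*-/- cells. *Lyz2* with Pax5-K198R against EV was called in both series (limma, adjusted p = 0.00213 and 0.0295), but the call in *Sirt7*-/- cells was lost without the filter on low counts (adjusted p = 0.0504), without the first EV or either Pax5-K198R library (up to 0.163) and without the 2 libraries with the highest stroma sums (0.24).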

How the results depend on the processing

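Alternatives were run for 45 changes of single genes among the 10, and none of these reversed in direction. Over all these alternatives, 391 results kept their call or its absence, 56 lost a call and 19 gained one. Of the counts of called genes among the 10, 136 kept within 1.5 times, 22 became smaller, 9 larger and 6 counts of genes with peaks moved. With a replicate block the counts called were 2 for Pax5-K198Q against EV, 8 for Pax5-K198R against EV, 6 for Pax5-K198R against Pax5-K198Q and 5 for Pax5-WT against EV in *Pax5*-/- cells, and 3 for Pax5-K198R and 2 for Pax5-WT against EV in cultured *Sirt7*-/- cells. Of all genes 2.72%, 21.2%, 13.1%, 10.1%, 11.6% and 1.96% were called in these fits. The block by mouse changed no count of the sorted cells by more than 1.5 times. With only the groups compared in the fit, 0 were called for Pax5-K198R against Pax5-K198Q, 0 for Pax5-K198R against Pax5-WT, 2 for Pax5-WT against EV in *Pax5*-/- cells, and 3 for the stage step in *Sirt7*-/- cells, where 0.829%, 0.318%, 4.18% and 29.5% of all genes were called. Without the filter 0 were called for Pax5-K198R against EV in cultured cells, 0 for Pax5-K198R against Pax5-WT in *Pax5*-/- cells and 3 for the *Sirt7*-/- stage step, where 2.71%, 1.66% and 25.9% of all genes were. Leaving out the 2 libraries with the highest stroma sum, chosen after seeing the data, 0 were called for Pax5-K198R against EV in cultured cells, where 0.487% of all genes were. DESeq2 called 2 in *Sirt7*-/- against wild-type pre-B cells, where 4.88% of all genes were.

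Leaving out 1 library at a time, the counts ranged from 0 to 1 for Pax5-K198R against EV in cultured cells, 3 to 5 for Pax5-K198R against EV, 0 to 4 for Pax5-K198R against Pax5-K198Q, 0 to 1 for Pax5-K198R against Pax5-WT and 0 to 1 for Pax5-WT against EV in *Pax5*-/- cells, 3 to 5 for the stage step in *Sirt7*-/- and 3 to 5 in wild-type cells, and 0 to 1 for *Sirt7*-/- against wild-type pre-B cells. The shares of all genes called ranged, in the same order, from 0.464% to 1.66%, 4.28% to 11.1%, 0.241% to 6.89%, 0.159% to 4.31%, 0.672% to 1.27%, 21.3% to 33.5%, 26.9% to 30.1% and 0.0913% to 1.11%. Within 50 kb, 5 of the 10 genes had a Pax5-WT peak, 3 a Pax5-K198Q peak and 7 a Pax5-K198R peak, where 49.9%, 23.0% and 53.3% of all genes had one. In either list 4, 1 and 6 had one, where 45.4%, 22.8% and 48.8% of all genes did, and within 2 kb of the gene start 0, 0 and 3 had one, where 17.9%, 5.98% and 21.4% did, in the same order of forms. Over all genes, DESeq2 called 728 in pre-B and 128 in pro-B cells against 15 and 11 by limma. The replicate block called 363 against 123 for Pax5-K198Q, 1343 against 434 for Pax5-WT and 2834 against 1324 for Pax5-K198R, each against EV in *Pax5*-/- cells, and 1588 against 659 for Pax5-K198R in cultured cells.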

Other observations

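For the 4 genes with the smallest p over the groups of a table, the tested genes with the most similar log2 values over the 8 libraries were listed as a description, since libraries share groups and depth. For *Itgam* in sorted cells they were *Igkj1* (Pearson r = 0.9965), *Brwd1* (0.9951) and *Malt1* (0.9945), and 2167 genes had an r above 0.9. For *Lyz2* in sorted cells *Ccdc107* was nearest (0.9935), with 649 genes above 0.9. For *Mpo* in *Pax5*-/- cells *Lrp12* (0.9916) and *Jup* (0.9915) were nearest, and for *Cebpb* *Plekha7* (0.9891), with 441 and 389 genes above 0.9.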
